A study of Homo sapiens with 18 samples.

Results

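The comparison described here sets U251 cells given an siRNA against MPS1 (siMPS1) beside the same cells given a negative-control siRNA (siNeg), both collected at 24 h after transfection. It was chosen by the labels alone and holds 4 of the 18 arrays of the series, 2 in each group. U251 is an established human glioblastoma line, and all groups came from this line. Both transfected groups received 2 pmol of siRNA. Untransfected U251 cells (Control, 2 arrays at 24 h) and the same 3 groups at 6 and 48 h, each with 2 arrays, make up the other 14 arrays and serve here to place the 24 h response. The sources used here do not give the siRNA sequences, their number or the transfection reagent. Each siRNA group stands for a single reagent as far as these data go. Separate cultures are not named for the arrays within a group, and the p-values therefore measure the spread between arrays, which may be technical.

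MPS1 is a protein kinase encoded by TTK. It works at the kinetochore, the protein plate on each centromere, where it recruits the spindle checkpoint proteins that hold back anaphase until every chromosome is attached to the spindle. Cells that lose it can leave mitosis with chromosomes unattached. TTK itself, like most genes of mitosis, is transcribed mainly in the second part of the cell cycle, while the MCM helicase and the enzymes of DNA synthesis are transcribed earlier, around the start of S phase, by E2F factors.

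Replicate arrays at 24 h correlated at 0.985 in siMPS1, 0.990 in siNeg and 0.989 in Control across genes. Of the glial markers, 8 of the 15 on the array were bright enough to be tested. In this list VIM (11.92 in siNeg) and NES (8.46) gave high signals, but GFAP (2.22) and S100B (1.68) did not. Some markers of other lists were also bright in siNeg: the mesenchymal CD44 (11.52), the neuronal NEFL (10.69) and TUBB3 (10.49), and the epithelial KRT18 (9.19). Of the neuronal markers 7 of 11 were bright enough to be tested, and of the epithelial markers 3 of 11. The summed linear signal of the glial markers ran from 5110 to 5719 over the 6 arrays of 24 h, and that of the blood and endothelial markers, of which 0 of 8 were bright enough to be tested, from 23.2 to 44.5. The probe sets for 18S ribosomal RNA, which the poly(A)-primed labelling of mRNA should largely leave out, averaged 11.16 and 11.15 in the siNeg arrays, 10.31 and 10.42 in siMPS1, and 10.17 and 10.20 in Control on the log2 scale. The siNeg arrays of 24 h thus stood apart from the 4 others in this measure, and its part in the gene results was not tested. For most leading genes and main lists, Control values or changes against Control are therefore given as well.

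TTK was lower in siMPS1 at 24 h. Its only probe set in the annotation (TTK lies on chromosome 6) read 5.23 and 4.74 in the siMPS1 arrays, 6.86 and 6.89 in siNeg, and 7.13 and 6.81 in Control, on the log2 scale with a pseudocount of 3 added to the linear signal. Both siMPS1 arrays lay below all 4 others. The log2 change of -1.88 (SE 0.21; limma, adjusted p = 8.5e-06) left 27.1% of the siNeg signal, and the change against Control was -1.98. At 6 h the change was -1.43 and at 48 h it was -2.30, and neither difference from 24 h passed the test (limma, adjusted p = 0.41 for 24 h against 6 h and 0.37 for 48 h against 24 h).

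Across 7616 genes tested, 861 changed between siMPS1 and siNeg at 24 h, which is 11.3% (limma, Benjamini-Hochberg adjusted p under 0.05). Of these, 405 rose (5.32% of genes tested) and 456 fell (5.99%). The median over all genes tested was 0.00105 on the log2 scale, and MAS5, which scales all arrays to a common mean, largely fixes this centre. Most changes were small. The called genes had a median absolute log2 change of 0.43, and 46 of them changed at least 2-fold, 12 upwards and 34 downwards. The called rises ran from 0.17 to 1.73 and the called falls from -0.18 to -1.88, and TTK was the largest fall. The siMPS1 and siNeg arrays did not overlap in all 861 called genes, and also not in 53.0% of all genes tested, so that separation of the arrays by itself carries little information with 2 arrays a group. Calls were more frequent among bright genes. The 1904 dimmest genes tested gave 54 calls and the 1904 brightest 375. The count depended on single arrays: it was 370 without siNeg replicate 1, 456 without siNeg replicate 2, 432 without siMPS1 replicate 2 and 739 without siMPS1 replicate 1.

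**Figure D1:**
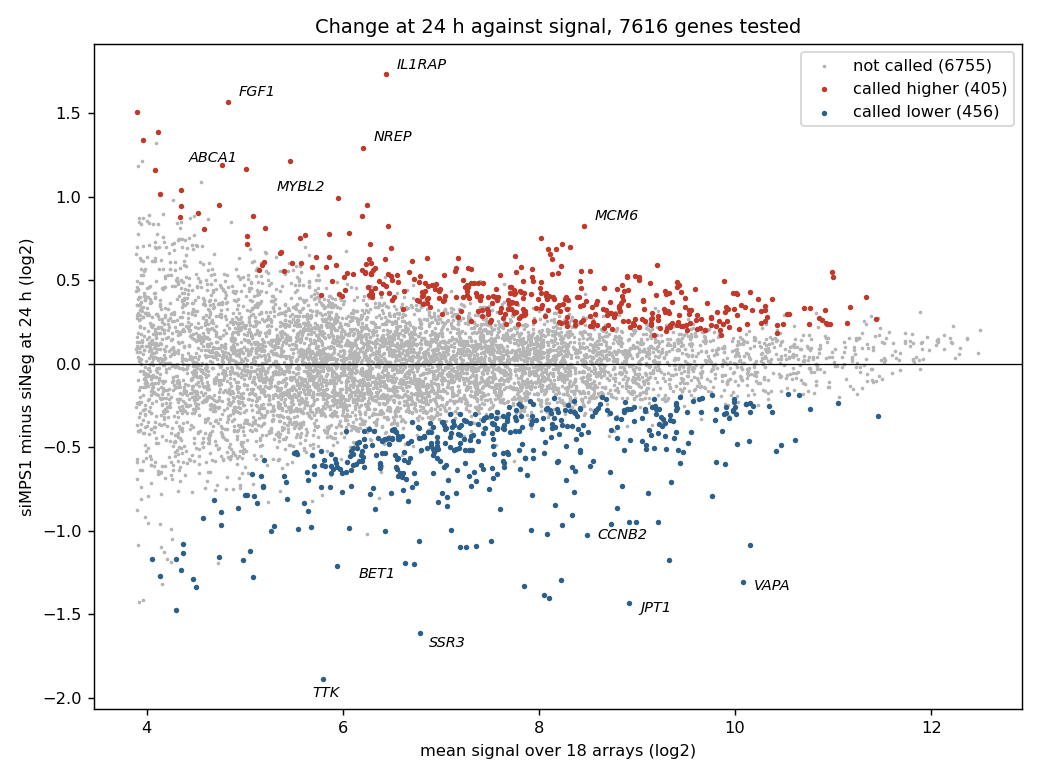
Log2 change of siMPS1 over siNeg at 24 h (vertical axis) against the mean log2 signal over the 18 arrays (horizontal axis), 1 point per gene. The 405 called rises are red, the 456 called falls blue and the 6755 other genes grey; TTK and SSR3 lie lowest, and the 34 falls of at least 2-fold outnumber the 12 such rises.

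The 12 falls with the smallest p were JPT1, VAPA, DDAH1, MSMO1, DAP3, GGCT, SEPTIN10, ADORA2B, NPC2, NT5E, CCNB2 and SSR3, with log2 changes from -0.79 to -1.61. JPT1, a microtubule-associated protein also known as HN1, read 8.12 and 8.20 in siMPS1, 9.60 and 9.59 in siNeg, and 9.50 and 9.47 in Control. VAPA, an endoplasmic reticulum protein that tethers this membrane to others and takes part in lipid transfer, read 9.18 and 9.27 against 10.51 and 10.56 in siNeg and 10.49 and 10.35 in Control. The siMPS1 arrays were lowest in both genes, and the arrays of the other 2 groups differed little from each other. The changes against siNeg were -1.43 (SE 0.06) for JPT1 and -1.31 (SE 0.06) for VAPA, each with a limma adjusted p of 2.0e-10. SSR3, a subunit of the translocon-associated TRAP complex, read 6.01 and 6.04 in siMPS1, 7.67 and 7.61 in siNeg, and 7.24 and 7.29 in Control. It was the largest fall after TTK at -1.61 (SE 0.13; limma, adjusted p = 1.6e-07).

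Among the other falls, several encode enzymes. DDAH1, which degrades the nitric oxide synthase inhibitor asymmetric dimethylarginine, fell to 8.23 and 8.21 from 9.35 and 9.43 in siNeg (log2 change -1.17). GGCT, which releases 5-oxoproline in glutathione breakdown, fell to 9.57 and 9.39 from 10.58 and 10.55 (-1.09). NT5E, the ectoenzyme CD73 that makes extracellular adenosine, read 7.40 and 7.28 against 8.33 and 8.33 (-0.99). The adenosine receptor ADORA2B also fell, to 7.20 and 7.24 from 8.59 and 8.52 (-1.33). NPC2, which carries cholesterol out of the lysosome, fell by 0.79, and DAP3, a protein of the small mitochondrial ribosomal subunit, fell by 0.96. SEPTIN10, a filament-forming GTPase, fell by 1.39, and its second probe set gave -1.34. CCNB2, cyclin B2, read 8.46 and 8.44 in siMPS1, 9.48 and 9.46 in siNeg, and 9.45 and 9.53 in Control (-1.02, SE 0.08; limma, adjusted p = 1.6e-07). All 12 were also called lower against Control (limma), where 7.39% of genes tested were called lower, with changes from -0.76 to -1.38; these values share the siMPS1 arrays. Between siNeg and Control, 1 of the 12, DDAH1, was called (0.27), where 0.486% of genes were called higher and 0.512% lower (limma).

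The 12 rises with the smallest p were TGFBR2, NREP, DESI2, LAMC1, IFI44, COL4A1, COL4A2, VCAN, MCM6, SRSF6, COL5A1 and PRPS2, with log2 changes from 0.52 to 1.29. TGFBR2, the type II receptor of TGF-beta, read 8.37 and 8.42 in siMPS1, 7.71 and 7.71 in siNeg, and 7.74 and 7.74 in Control. NREP, a small protein expressed in regenerating neurons and in wound fibroblasts, read 6.67 and 6.82 against 5.48 and 5.43 in siNeg and 5.60 and 5.43 in Control. Both siMPS1 arrays lay above the 4 others in each gene. The changes were 0.68 (SE 0.06; limma, adjusted p = 1.3e-06) for TGFBR2 and 1.29 (SE 0.12; limma, adjusted p = 1.6e-06) for NREP. IFI44, an interferon-induced gene, read 8.85 and 8.85 against 8.07 and 8.12 in siNeg and 8.15 and 8.28 in Control (0.75 against siNeg, 0.64 against Control). SRSF6, a splicing factor of the SR family, rose by 0.52 against siNeg and 0.43 against Control, and PRPS2, which makes the ribose phosphate for nucleotide synthesis, by 0.52 and 0.54.

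All 12 rises were also called higher against Control (limma), where 5.71% of genes were called higher, with changes from 0.22 to 1.23. DESI2, of the desumoylating isopeptidase family, was the smallest of these. Its arrays read 8.46 and 8.67 in siMPS1, 7.88 and 7.82 in siNeg, and 8.38 and 8.31 in Control, so its change of 0.72 against siNeg stood beside 0.22 against Control, and siNeg was below Control by 0.49 (limma, adjusted p = 0.0039). VCAN, the matrix proteoglycan versican, had 0.64 against siNeg, 0.30 against Control and -0.34 for siNeg against Control (limma, adjusted p = 0.041 for the last). The other 10 were not called between siNeg and Control. Other probe sets of the same genes mostly gave the same direction. LAMC1 was an exception, with 0.59 in the brightest probe set and -0.09 (SE 0.06) in the other. A further COL5A1 probe set gave 0.13 (SE 0.14). In DESI2, VCAN and COL5A1 another probe set was also called (limma over probe sets, adjusted p under 0.05). Those of COL4A1 (0.57, SE 0.30), COL4A2 (0.16, SE 0.23), IFI44 (0.23, SE 0.26), NREP (0.40, SE 0.44), SRSF6 (0.24, SE 0.13) and TGFBR2 (0.40, SE 0.46) were not.

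**Figure D2:**
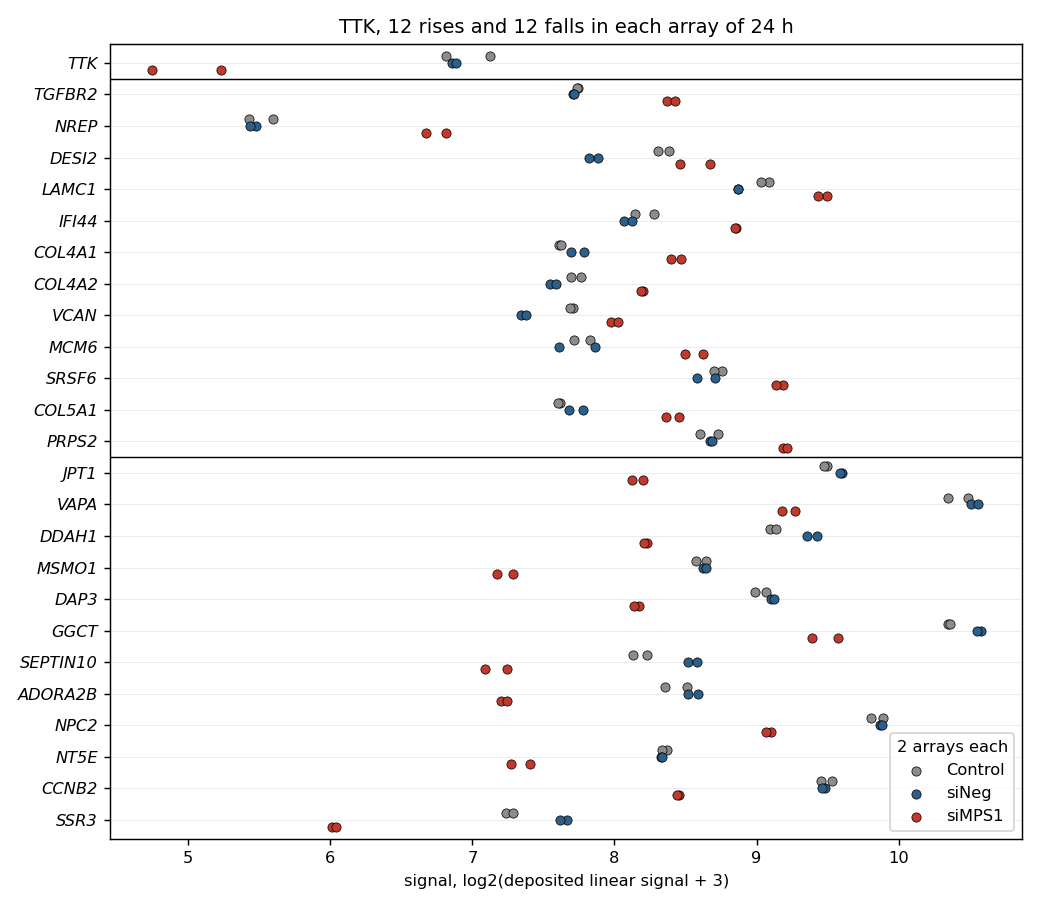
Log2 signal (horizontal axis) of TTK, the 12 rises and the 12 falls with the smallest p in each of the 6 arrays of 24 h, 2 points per group and gene: Control grey, siNeg blue, siMPS1 red. In every gene drawn the 2 siMPS1 points lie beyond both siNeg points, and the Control points lie nearer to siNeg than to siMPS1 except in DESI2 and VCAN.

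A minority of the genes of DNA replication rose in siMPS1, among them subunits of the MCM helicase. In bulk RNA, more cells in S phase and more of these transcripts per cell cannot be told apart. Of 24 tested members of a list of origin licensing and the MCM helicase, 4 rose and 2 fell (limma), with a median of 0.16, against the 5.32% and 5.99% called in each direction and the median of 0.00105 over all genes. The 4 that rose were the helicase subunits MCM6, MCM3, MCM7 and MCM2. Of 31 tested members of a list of replication fork proteins and nucleotide supply, 8 rose and 0 fell (limma; 11 and 3 at an unadjusted p under 0.05), with a median of 0.15; over 30 alternative fits 4 to 8 of the fork list and 2 to 6 of the licensing list rose. MCM6 read 8.49 and 8.62 in siMPS1, 7.86 and 7.61 in siNeg, and 7.83 and 7.71 in Control (0.82, SE 0.10; limma, adjusted p = 3.2e-05). MCM3 read 8.43 and 8.58 against 8.02 and 7.88 in siNeg and 8.25 and 8.10 in Control (0.55). Both were above every siNeg and Control array. The calls of MCM2 (0.31) and MCM7 (0.34) were lost without siNeg replicate 1 (limma, adjusted p = 0.052 and 0.072) and without siMPS1 replicate 2 (0.057 and 0.13).

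Among fork and nucleotide genes, UNG, the glycosylase that removes uracil from DNA, read 8.28 and 8.19 in siMPS1 against 7.68 and 7.62 in siNeg and 7.82 and 7.68 in Control (0.59). RRM1, the large subunit of ribonucleotide reductase, read 9.67 and 9.67 against 9.18 and 9.22 in siNeg and 9.47 and 9.46 in Control. Its change was 0.47 against siNeg and 0.21 against Control. A second RRM1 probe set gave 0.12 (SE 0.08) against siNeg, and with probe sets averaged the change was 0.29. TYMS, thymidylate synthase, rose by 0.34 against siNeg and 0.39 against Control, and RFC4, a subunit of the clamp loader, by 0.32 against each. Against Control, 6 members of the fork list were called higher and 2 lower, and 6 and 0 of the licensing list (limma). Genes of the step before S phase were mixed. CCNE2, cyclin E2, fell by 0.76, from 6.53 and 6.62 in siNeg to 6.06 and 5.59 (-0.65 against Control), and 3 of 21 tested members of the list of G1 cyclins, E2F and RB genes rose while 3 fell (limma).

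The promoters of the 4 MCM genes that rose are shown because these genes moved together. Each sequence runs from 250 bases before to 50 after the start of the gene in RefSeq (GRCh38.p14), 5′ to 3′ on the gene's strand, and capitals mark matches to 4 E2F-type motifs, TTTGGCGC, TTTCCCGC, TTTCGCGC and TTTGCCGC, searched on both strands, with overlapping matches written as 1 run. The windows are chr2:135876394-135876693 for MCM6, chr6:52284693-52284992 for MCM3 and chr7:100101348-100101647 for MCM7, all on the minus strand, and chr3:127598161-127598460 for MCM2 on the plus strand. MCM7 has 3 windows, of which 1 is shown, chosen by its number of matches, the highest among them.
MCM6: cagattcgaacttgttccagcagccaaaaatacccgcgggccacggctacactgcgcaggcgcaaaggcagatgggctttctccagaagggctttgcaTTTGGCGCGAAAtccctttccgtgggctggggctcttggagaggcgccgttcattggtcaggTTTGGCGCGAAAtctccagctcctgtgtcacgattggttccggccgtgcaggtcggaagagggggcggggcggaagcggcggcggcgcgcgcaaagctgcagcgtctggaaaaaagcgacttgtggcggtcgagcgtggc
MCM3: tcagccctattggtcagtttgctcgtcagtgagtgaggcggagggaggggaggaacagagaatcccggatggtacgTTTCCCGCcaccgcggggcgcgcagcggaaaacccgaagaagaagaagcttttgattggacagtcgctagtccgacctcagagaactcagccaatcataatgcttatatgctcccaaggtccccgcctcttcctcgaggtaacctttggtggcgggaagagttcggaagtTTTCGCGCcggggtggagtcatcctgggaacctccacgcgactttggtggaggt
MCM7: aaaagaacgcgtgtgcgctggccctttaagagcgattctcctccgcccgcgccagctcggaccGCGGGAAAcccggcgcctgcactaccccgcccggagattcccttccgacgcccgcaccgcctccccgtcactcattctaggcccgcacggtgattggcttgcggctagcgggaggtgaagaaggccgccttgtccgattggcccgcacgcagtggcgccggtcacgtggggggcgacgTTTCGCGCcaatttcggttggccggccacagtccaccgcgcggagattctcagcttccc
MCM2: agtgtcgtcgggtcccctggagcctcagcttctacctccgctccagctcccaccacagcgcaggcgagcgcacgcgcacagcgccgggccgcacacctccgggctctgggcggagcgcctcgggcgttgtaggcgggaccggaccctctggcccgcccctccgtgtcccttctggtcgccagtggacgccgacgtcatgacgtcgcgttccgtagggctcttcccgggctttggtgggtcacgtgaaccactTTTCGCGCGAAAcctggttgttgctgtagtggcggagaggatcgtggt
MCM6 had 4 matches, in overlapping pairs on opposite strands, MCM2 had 2 that overlap in the same way, and MCM3 and MCM7 had 2 each that lie apart. A match is a description of letters and not of a bound factor. A gene with several windows counts as holding a match if any of them does. Of all 27305 genes with a window, 3.99% held a match, and of the 6394 such genes tested, 7.24%. Among called rises with a window 9.3% held 1 or more and among called falls 6.38%, so the rises as a whole were close to the genes tested. In the licensing list 13 of 21 genes with a window (61.9%) held a match, and in the fork list 11 of 28 (39.3%), including 4 of the 8 that rose. The licensing matches covered both genes that rose and genes that did not, since ORC3, which fell (-0.50, a call lost without either siNeg array or siMPS1 replicate 2), and CDC6 and GMNN, which were not called, also held them; these 3 genes were picked after their values were seen.

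A few genes of mitosis were called in each direction at 24 h, beside 5.32% of all genes tested called higher and 5.99% lower (limma). None of those of the kinetochore was called. No list was tested as a set against all genes. Of 21 tested members of the list of kinetochore and centromere proteins, the structures at which MPS1 acts, 0 were called in either direction (limma; 0 higher and 1 lower at an unadjusted p under 0.05), and their median was -0.03. Of 14 spindle checkpoint genes, 1 rose and 2 fell (limma), and the falls were TTK itself and MAD1L1 (-0.33, a call lost without siNeg replicate 2 or siMPS1 replicate 1). BUB1B, the checkpoint kinase-like protein BUBR1, rose by 0.42, a call lost without siNeg replicate 1 (limma, adjusted p = 0.12) and without siMPS1 replicate 2 (0.082). Mitotic entry genes gave 3 rises and 2 falls of 24, spindle motors and cytokinesis genes 2 rises and 0 falls of 22 (6 and 3 unadjusted), anaphase genes 3 rises and 0 falls of 18 (4 and 1 unadjusted), and condensins and chromosome structure 2 rises and 1 fall of 12 (limma). In the order of these 6 lists from kinetochore to chromosome structure, 0, 2, 1, 2, 1 and 2 were called higher against Control. Called lower against Control were 0, 3, 2, 1, 0 and 2 (limma). The shares over all genes against Control were 5.71% higher and 7.39% lower. CDK1, the kinase that drives entry into mitosis, read 9.88 and 9.61 in siMPS1, 9.21 and 9.31 in siNeg, and 9.61 and 9.50 in Control. MKI67, the proliferation antigen Ki-67, read 8.54 and 8.39, 7.94 and 7.90, and 8.31 and 8.48 in the same order. For both genes the siNeg arrays were the low ones, and siMPS1 overlapped or nearly met Control: the change in CDK1 was 0.49 against siNeg and 0.19 against Control, and that in MKI67 was 0.55 and 0.07. MKI67 was lower in siNeg than in Control by 0.48 (limma, adjusted p = 0.029). The cohesin subunit SMC1A had the same order, with 0.52 against siNeg and 0.19 against Control. CCNB2 stands apart from these genes, since its siMPS1 arrays were below both other groups.

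Among genes of cholesterol supply falls outnumbered rises, although most members were not called. The shares over all genes tested were 5.99% lower and 5.32% higher (limma). Of 16 tested genes of cholesterol synthesis 5 fell and 0 rose (limma; 7 and 0 at an unadjusted p under 0.05), with a median of -0.17. MSMO1, the methylsterol monooxygenase, led them with 7.17 and 7.29 in siMPS1, 8.62 and 8.64 in siNeg, and 8.57 and 8.65 in Control, a change of -1.40 (SE 0.08; limma, adjusted p = 1.1e-09). The other 4 that fell were SC5D (-0.36), INSIG1 (-0.45), SQLE (-0.27) and NSDHL (-0.45), and the calls of all 4 were lost in at least 1 fit that left out an array; the number of falls in this list ran from 1 to 5 over 30 alternative fits. Against Control 3 genes of this list were called lower and 0 higher, and 4 and 0 of the efflux list named next (limma). MSMO1 was already as low at 6 h (-1.32), when 2 genes of the list were lower. Of 19 genes of cholesterol efflux and transport 6 fell and 1 rose (limma), with a median of -0.10. SOAT1, which esterifies cholesterol for storage, read 6.94 and 6.68 in siMPS1, 7.91 and 7.90 in siNeg, and 8.03 and 7.85 in Control (-1.09). ABCA1, the pump that exports cholesterol, was the rise (1.16), but its siNeg arrays read 4.84 and 3.94, and without siNeg replicate 2 the change was 0.71 and not called (limma, adjusted p = 0.11). NPC2, described above with the leading falls, also belongs to this list.

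Genes of amino acid supply were lower in part, beside 5.99% of all genes tested called lower and 5.32% higher (limma). Of 26 genes of amino acid supply and ATF4 targets 6 fell and 0 rose (limma; 11 and 0 at an unadjusted p under 0.05), with a median of -0.16. They included PSAT1, of serine synthesis, at 6.70 and 6.74 in siMPS1 against 7.42 and 7.43 in siNeg and 7.15 and 7.11 in Control, CTH, of cysteine synthesis (-0.65), and the stress transcription factor ATF3 (-0.52). Against Control these 3 genes had -0.41, -0.44 and -0.23, and 6 of the list were called lower and 0 higher (limma). Of 28 ER chaperones and unfolded protein response genes 2 fell (7.14%, near the 5.99% over all genes) and 0 rose (limma). At an unadjusted p under 0.05, 4 fell and 0 rose, and the median was -0.10. EIF2AK3, the ER stress kinase PERK, read 7.12 and 6.92 in siMPS1, 7.74 and 7.84 in siNeg, and 7.68 and 7.66 in Control (-0.77). The other fall was PPP1R15A, the phosphatase subunit GADD34 (-0.42). None of the chaperones of this list was called against siNeg, and 1 member was called higher and 4 lower against Control (limma).

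Genes of transport between the ER and the Golgi held more falls than rises, beside 5.99% of all genes tested called lower and 5.32% higher (limma). Of 30 genes of COPI and COPII coats and cargo receptors 7 fell and 2 rose (limma), with a median of -0.05. BET1, a SNARE of this route, read 6.26 and 6.09 in siMPS1, 7.37 and 7.37 in siNeg, and 7.24 and 7.03 in Control (-1.20, SE 0.11; limma, adjusted p = 1.4e-06). COPE and COPG1, both subunits of the COPI coat, fell by 0.80 and 0.57, and KDELR1, the receptor that returns ER proteins, by 0.78. Against Control KDELR1 had -0.92 and COPG1 -0.42, and 1 of the list was called higher and 6 lower (limma). COPE was intermediate in Control, at 7.10 and 7.28 beside 6.83 and 6.71 in siMPS1 and 7.53 and 7.61 in siNeg. Of 26 autophagy genes 4 fell and 0 rose (limma; 10 and 0 unadjusted), with a median of -0.21. WIPI2, which binds the membrane of the forming autophagosome, read 8.23 and 8.44 against 9.04 and 9.10 in siNeg and 9.12 and 9.07 in Control (-0.73), and ATG12, a ubiquitin-like conjugation protein, fell by 0.53 (-0.53 against Control). Against Control 1 of the list was called higher and 4 lower (limma). Of 18 genes of the ESCRT machinery 2 fell and 1 rose (limma). CHMP2B, an ESCRT-III subunit, read 7.51 and 7.24 against 8.75 and 8.59 in siNeg and 8.59 and 8.35 in Control (-1.29). Among 40 lysosomal genes 2 fell and 1 rose (limma), with the sialidase NEU1 lowest of those called (-0.67, and -0.44 against Control).

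Some genes of the extracellular matrix rose, while integrin and focal adhesion genes gave 0 rises and 3 falls of 26 (limma; 2 and 7 at an unadjusted p under 0.05), a direction that turned in 2 of 30 alternative fits. Of 18 basement membrane genes 5 rose and 0 fell (limma; 7 and 0 at an unadjusted p under 0.05), with a median of 0.16: COL4A1, COL4A2, LAMC1, SPARC and PXDN. Against Control 5 of the list were called higher and 2 lower (limma). Over all genes tested, 5.32% rose against siNeg and 5.99% fell. COL4A1, a chain of type IV collagen, read 8.46 and 8.40 in siMPS1, 7.78 and 7.69 in siNeg, and 7.61 and 7.62 in Control (0.70). COL4A2, its partner chain, read 8.20 and 8.19 against 7.55 and 7.59 in siNeg and 7.70 and 7.76 in Control (0.63). SPARC, a collagen-binding glycoprotein, rose by 0.43 against siNeg and 0.55 against Control, and PXDN, peroxidasin, which crosslinks type IV collagen, by 0.41 against each. In all 4 the siMPS1 arrays were above the siNeg and Control arrays. COL4A1 and COL4A2 lie head to head on chromosome 13 and share the sequence between their starts, which is shown because both genes rose. The window chr13:110307034-110307333 (RefSeq, GRCh38.p14) is written 5′ to 3′ on the plus strand, that of COL4A2, and capitals mark the 126 bases between the start of COL4A1 at 110307157, which is read on the minus strand, and that of COL4A2 at 110307284. This window holds 0 matches to the E2F-type motifs above.
COL4A2: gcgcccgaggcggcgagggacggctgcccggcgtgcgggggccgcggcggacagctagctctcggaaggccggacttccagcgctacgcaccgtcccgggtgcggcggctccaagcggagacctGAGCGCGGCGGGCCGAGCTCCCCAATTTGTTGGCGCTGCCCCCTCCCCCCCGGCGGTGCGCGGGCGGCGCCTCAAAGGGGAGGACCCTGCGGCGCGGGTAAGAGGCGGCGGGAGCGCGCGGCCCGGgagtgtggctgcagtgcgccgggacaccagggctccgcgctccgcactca

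Of 31 interstitial collagens and matrix glycoproteins 8 rose and 2 fell (limma), with a median of 0.24, but the median against Control was -0.01, with 6 called higher and 3 lower, and that of siNeg against Control was -0.11. COL5A1, a chain of type V collagen, read 8.46 and 8.37 in siMPS1, 7.78 and 7.68 in siNeg, and 7.61 and 7.61 in Control (0.68). FBN1, fibrillin-1, read 7.76 and 7.85, 7.27 and 7.19, and 7.46 and 7.67, so its change of 0.58 against siNeg stood beside 0.24 against Control, which was not called (limma, adjusted p = 0.051). The 2 falls were COL6A2, a chain of type VI collagen (-0.51, and -0.86 against Control), and the collagen lysyl hydroxylase PLOD2 (-0.29 and -0.38). Matrix proteases and their inhibitors gave 5 rises and 1 fall of 21 (limma). PLAU, the urokinase, and PLAUR, its receptor, rose by 0.35 and 0.46 against siNeg (0.32 and 0.34 against Control), while ADAM19, a membrane metalloprotease, read 8.13 and 7.96 in siMPS1, 8.68 and 8.70 in siNeg, and 8.81 and 8.76 in Control (-0.65). Of the mesenchymal markers, N-cadherin CDH2 rose by 0.44 (0.28 against Control) and cadherin-11 CDH11 fell by 0.67 (-0.70 against Control), with 2 rises and 2 falls among 12 tested (limma). The summed signal of these markers ran from 8432 to 9410 in siMPS1, from 8468 to 8582 in siNeg and from 8341 to 8918 in Control, so the groups overlapped.

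The signalling lists held calls in both directions, beside 5.32% of all genes tested called higher and 5.99% lower (limma). The list of TGF-beta and BMP signalling gave 3 rises and 2 falls of 27, headed by TGFBR2 and NREP, and that of growth factor signalling 7 rises and 2 falls of 39, among them the growth factor PDGFC (0.32, and 0.28 against Control) and the receptor EPHA2 (-0.35, and -0.42 against Control) (limma). Over 30 alternative fits 2 to 8 of the growth factor list rose. YAP targets gave 0 rises and 4 falls of 19 (limma; 3 and 7 at an unadjusted p under 0.05), with a median of -0.02. Apart from NT5E these included TEAD1, the DNA-binding partner of YAP, at 5.96 and 5.75 in siMPS1, 6.69 and 6.76 in siNeg, and 6.71 and 6.70 in Control (-0.87). Interleukin and NF-kB genes gave 3 rises and 3 falls of 28 (limma). CCL2, a chemokine that attracts monocytes, read 7.58 and 7.22 in siMPS1, 8.42 and 8.28 in siNeg, and 8.13 and 8.12 in Control (-0.95). IL6ST, the shared receptor subunit gp130, read 8.55 and 8.49 against 9.48 and 9.46 in siNeg and 9.53 and 9.38 in Control (-0.95), and the cytokine IL11, which signals through it, rose by 0.50 (0.53 against Control). IL1RAP, a subunit of the interleukin-1 receptor, had the largest rise of all genes called, with 7.35 and 6.34 against 5.09 and 5.14 in siNeg and 5.91 and 5.72 in Control (1.73, SE 0.32; limma, adjusted p = 0.0016). Its siMPS1 arrays lay farther apart than its siNeg or its Control arrays did, and both were above the 4 other arrays. A dimmer IL1RAP probe set gave 0.05 (SE 0.27), and with probe sets averaged the change was 0.89.

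p53 targets and CDK inhibitors gave 1 rise and 3 falls of 21 (limma), and the p53 target CDKN1A, encoding p21, was not called (7.43 and 7.26 in siMPS1, 7.16 and 7.15 in siNeg); it was picked after its values were seen. In the BCL2 and apoptosis list PMAIP1, the BH3 protein NOXA, and CYCS, cytochrome c, were the 2 falls of 22 (-0.41 and -0.31, and -0.41 and -0.24 against Control), with 0 rises (limma; 3 falls and 0 rises unadjusted). Splicing factors gave 9 rises and 3 falls of 46 (limma), with a median of 0.10 and 3 to 10 rises over 30 alternative fits. The SR proteins went both ways, since SRSF6 rose while SRSF3 (-0.52, and -0.50 against Control) and SRSF4 (-0.48 and -0.55) fell. In glycolysis and hypoxia genes 3 of 29 fell and 0 rose (limma; 6 and 2 unadjusted), among them the pyruvate kinase PKM (-0.59, and -0.87 against Control) and the peptide hormone ADM (-0.41 against each). DICER1, the nuclease that makes small RNAs, was the single member called of 9 RNA interference genes (-0.52); siNeg was also below Control in it, by 0.35, which was not called. Ribosomal protein and proteasome genes had few calls: 1 of 51 cytosolic ribosomal protein genes and 2 of 33 proteasome genes were called (limma).

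**Figure D3:**
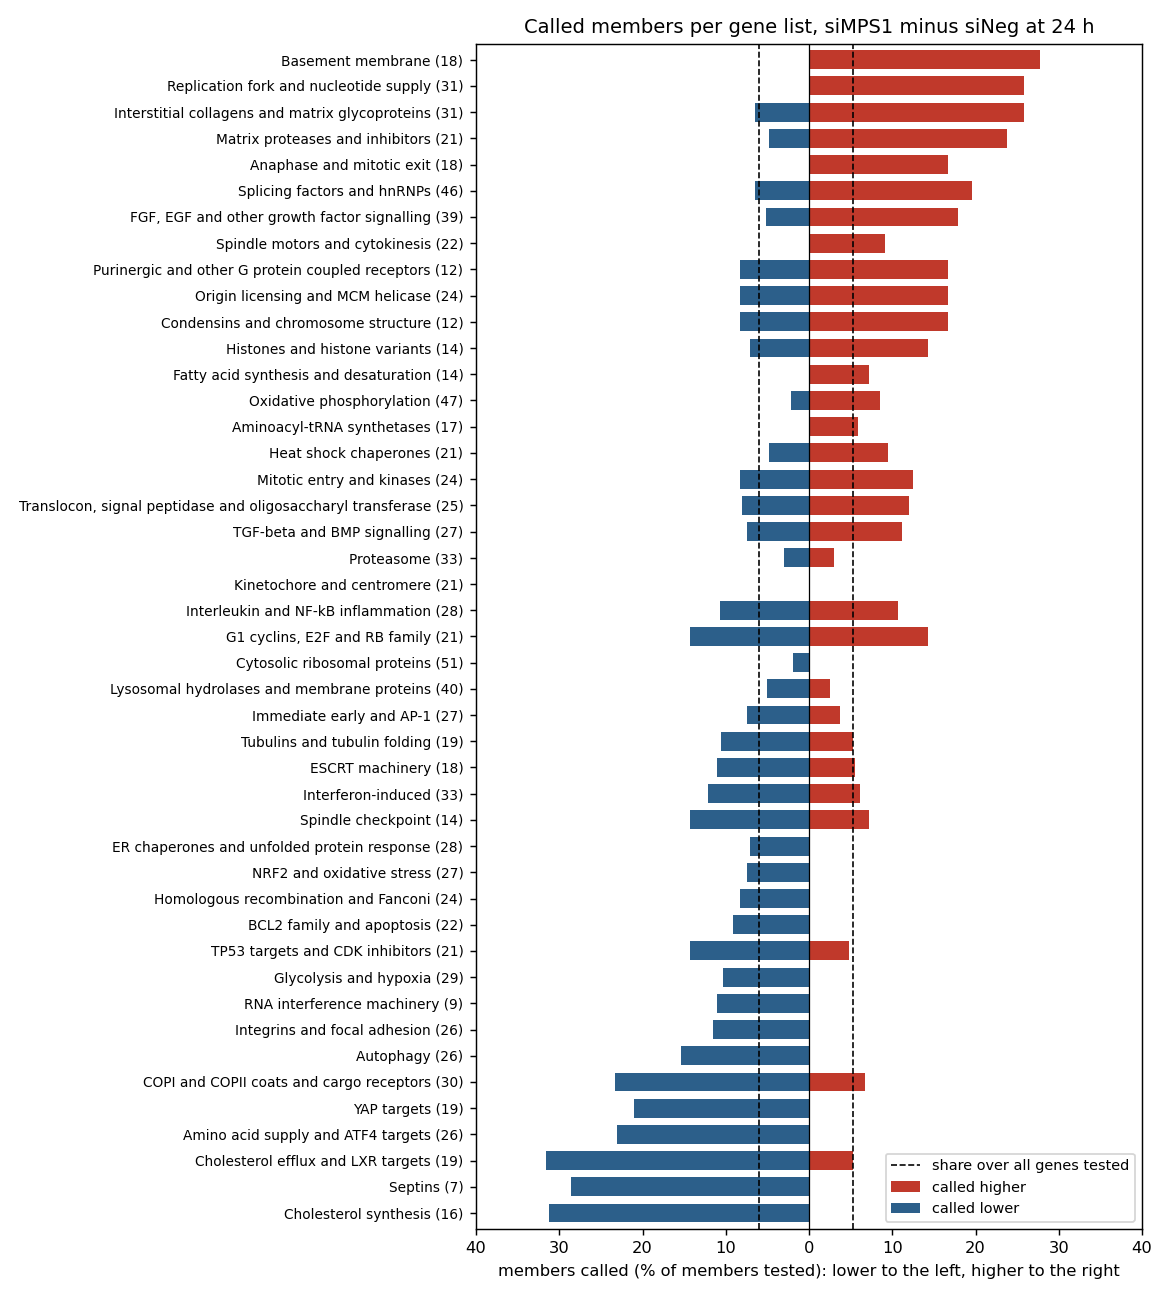
Share of the tested members of each of 45 gene lists called lower (blue, to the left) or higher (red, to the right) in siMPS1 against siNeg at 24 h, in percent, with the number tested in parentheses. Dashed lines mark the shares over all genes tested, 5.99% lower and 5.32% higher; the basement membrane list (5 of 18) and the replication fork and interstitial collagen lists (8 of 31 each) extend farthest to the right, and both cholesterol lists and septins (2 of 7) to the left.

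The response at 24 h was set against those at 6 and 48 h by testing the difference of the changes. Relative to 6 h, 159 genes responded more upwards (2.09%) and 147 more downwards (1.93%). The leading rises and falls were chosen by their p at 24 h, and the 24 h values enter the difference from 6 h. The choice itself therefore favours such a difference. Of the 12 leading rises, 0 were called at 6 h, when 3.55% of genes were called higher. All 12 differed from 6 h (limma), and 2 were higher at 6 h at an unadjusted p under 0.05. For LAMC1 this difference of 0.52 was 0.13 and not called when its probe sets were averaged (limma, adjusted p = 0.35). Of the 12 leading falls, 7 were already called at 6 h, when 4.39% of genes were called lower, and 11 differed from 6 h (limma); the exception was MSMO1. CCNB2 had a change of 0.03 at 6 h, -1.02 at 24 h and -1.41 at 48 h, and NPC2 had 0.18, -0.79 and -0.67. KIF11, the spindle motor Eg5, had -0.49 at 6 h, 0.48 at 24 h and -0.52 at 48 h against siNeg, although its call at 24 h was lost without siNeg replicate 1 (0.37). Its means at 24 h were 7.86 in siMPS1, 7.38 in siNeg and 7.74 in Control. Against Control the 24 h change of KIF11 was 0.12, which was not called (limma, adjusted p = 0.45).

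Relative to 24 h, the response to siMPS1 against siNeg at 48 h was higher in 708 genes (9.30%) and lower in 546 (7.17%). A sign of RNA quality moved with the groups at 48 h. The log2 signal of actin at the 3′ end exceeded that at the 5′ end by 0.87 and 0.92 in siMPS1, by 0.10 and 0.14 in siNeg and by 0.16 and 0.24 in Control, whereas at 24 h it did so by 0.43 and 0.43 in siMPS1 and 0.41 and 0.40 in siNeg; its part in the differences between times was not tested. At 48 h, when 16.2% of genes were called higher and 13.8% lower, 12 of the 12 leading falls and 6 of the 12 leading rises were still called in the same direction (limma). Responses of replication and mitosis genes were lower at 48 h. In the fork list 14 of 31 genes had a lower response at 48 h than at 24 h and 1 a higher, and 7 and 0 of 24 in the licensing list (limma). The response of MCM6 went from 0.82 to -0.24 and that of UNG from 0.59 to -0.23. The means of MCM6 at 24 and 48 h were 8.56 and 8.57 in siMPS1, 7.73 and 8.81 in siNeg, and 7.77 and 8.38 in Control. Those of UNG were 8.24 and 8.21, 7.65 and 8.44, and 7.75 and 8.29 in the same order. The siMPS1 means of both genes thus differed little between these times, while those of siNeg and Control were higher at 48 h. The kinetochore list, with 0 calls at 24 h, had 13 of 21 lower at 48 h and 9 that differed between these times (limma), and its median went from -0.03 to -0.53. COL4A1, COL4A2, VCAN and COL5A1 had -0.06, -0.11, 0.00026 and -0.00076 against siNeg at 48 h, while TGFBR2, DESI2 and LAMC1 remained called at 0.54, 0.52 and 0.52. The siNeg group itself lay above Control at 48 h in 3 of these collagen genes: COL4A1 had means of 7.68 in siMPS1, 7.75 in siNeg and 7.48 in Control, COL4A2 7.89, 7.999 and 7.38, and COL5A1 7.40, 7.40 and 6.60.

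In the stress and secretory lists named here, responses against siNeg were more often higher than lower at 48 h relative to 24 h. The ER chaperone and unfolded protein response list had 2 falls at 24 h and 18 rises of 28 at 48 h, with 16 members higher than at 24 h and 0 lower (limma), and its median went from -0.10 to 0.39. Amino acid supply and ATF4 targets had 12 of 26 higher and 1 lower (limma), with ATF3 going from -0.52 to 0.77, while PSAT1 went on down from -0.70 to -1.60. Coat and cargo receptor genes had 11 of 30 higher and 0 lower, autophagy genes 10 of 26 and 0, immediate early genes 12 of 27 and 1, and cholesterol synthesis genes 7 of 16 and 0 (limma). TEAD1 went from -0.87 to 0.70. HMOX1, heme oxygenase, read 9.83 and 9.66 in siMPS1 at 24 h, 10.18 and 10.34 in siNeg, and a mean of 9.96 in Control, a change of -0.52 that became 2.06 at 48 h. At 48 h its means were 9.89 in siMPS1, 7.83 in siNeg and 9.48 in Control, so siNeg was the group that stood apart. ATF3 and TEAD1 had the same order of siNeg and Control at 48 h, with means of 6.17, 5.40 and 6.38 for ATF3 and 6.39, 5.69 and 6.37 for TEAD1. Both responses share no arrays, but those of 24 h enter each difference, and the 18S signal of siNeg, high at 24 h (11.16), was lower than in siMPS1 at 48 h (9.47 against 11.13); its part in these differences was not tested.

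**Figure D4:**
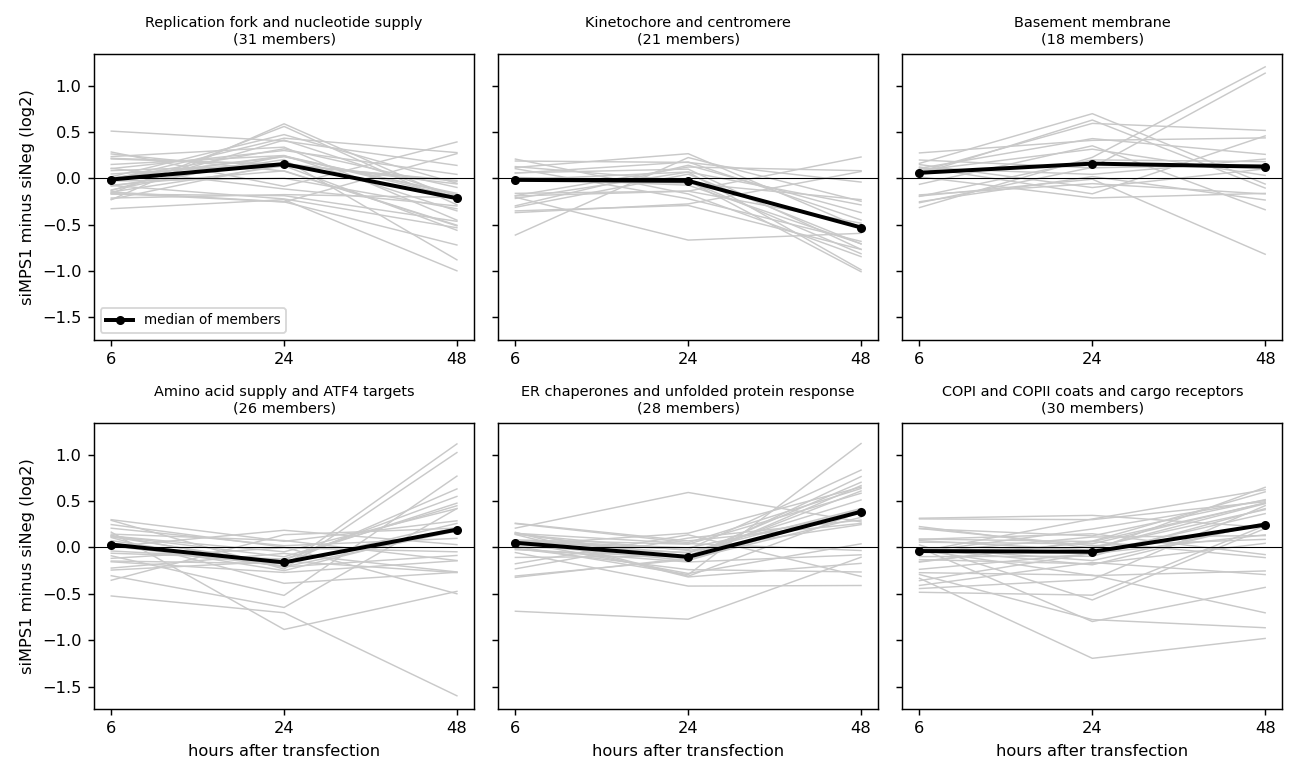
Log2 change of siMPS1 over siNeg (vertical axis) at 6, 24 and 48 h after transfection (horizontal axis) for the tested members of 6 gene lists, 1 grey line per gene, with the median of the members in black. The medians of the replication fork list and the kinetochore list end at -0.22 and -0.53 at 48 h, while those of the ATF4, ER chaperone and coat lists dip to -0.16, -0.10 and -0.05 at 24 h and end at 0.19, 0.39 and 0.25.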

How the data were processed

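The 18 Affymetrix human expression arrays of U251 cells are analysed from the deposited value table, which holds 1 value per probe set and array. Per the submitters' processing notes the authors used MAS5, and the deposited values were taken as log2 signals because 2 raised to them gave a trimmed mean (2% trimmed) of 100.122 to 100.134 in every array. MAS5 scales each array to a common mean, so a shift shared by all genes would be lost. Of 22277 probe sets, 62 controls were left out of the tests and 19064 of the rest named exactly 1 gene in the platform annotation. Values were returned to the linear scale, 3 was added and log2 taken. Of these probe sets the dimmest 40% by mean were dropped and the brightest per gene kept, which gave 7616 genes; the other 4347 genes with a probe set were not tested.

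limma 3.58.1 (R 4.3.3) fitted 9 group means to all 18 arrays (9 residual degrees of freedom, moderated with an intensity trend; two-sided, Benjamini-Hochberg within a contrast over all genes; called under 0.05). The script was tested on simulated data with known changes. Named genes are TTK, the 12 called rises and falls with the smallest p whose siMPS1 arrays lie beyond both siNeg arrays, up to 6 members per list by p, and 6 genes per direction for differences between times; 9 genes (XIST and Y-linked) are not named. The members and lists were chosen with earlier results of these data known. Array number limits precision, and raw array files were not used here.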

Additional observations from a re-analysis of the deposited data

Results flagged for a closer look

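Of TTK, the 24 leading genes and the genes picked for differences between times, 40 had a response to siMPS1 (against siNeg) that differed between 24 h and 6 h or between 48 h and 24 h (limma interaction contrast, adjusted p under 0.05). The genes picked for differences between times were chosen by those differences, and the leading genes by their p at 24 h. The choice therefore favours a high count. List members described above were not screened here. Where both differences passed, the one with the smaller p is given. No group has the 4 arrays needed to look for outlying arrays.

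Responses that were higher at 24 h than at 6 h, on the log2 scale, were those of TGFBR2 (by 0.58), NREP (1.04), DESI2 (0.63), LAMC1 (0.52), IFI44 (0.56), SRSF6 (0.41), PRPS2 (0.47) and the RNA-binding protein QKI (0.92). QKI fell at 6 h (-0.55), rose at 24 h (0.37, a call lost without either siNeg array or siMPS1 replicate 1) and was at -0.02 at 48 h; another of its probe sets fell at 24 h (-0.73), and with probe sets averaged its difference was 0.34. For LAMC1 that average gave 0.13, not called.

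Lower at 24 h than at 6 h were the responses of JPT1 (-0.88), VAPA (-0.73), DDAH1 (-0.93), DAP3 (-0.38), GGCT (-0.87), SEPTIN10 (-0.69), ADORA2B (-0.56), NPC2 (-0.97), NT5E (-0.78), CCNB2 (-1.06), SSR3 (-1.37) and CCL2 (-1.26). CCL2 had 0.31 at 6 h.

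Higher at 48 h than at 24 h were MSMO1 (by 0.48), HMOX1 (2.58), the membrane receptor DCBLD2 (1.71), the stress cytokine GDF15 (1.92), the aldo-keto reductase AKR1C1 (2.12), ANKRD1 (1.29) and the phosphatase DUSP10 (1.38). At 24 h itself GDF15 (-0.09), DUSP10 (-0.09) and AKR1C1 (-0.27) were not called. In these genes other than MSMO1 siNeg had the lowest mean of the 3 groups at 48 h: GDF15 had 8.69 in siMPS1, 6.87 in siNeg and 8.04 in Control, AKR1C1 8.84, 6.997 and 8.42, DCBLD2 9.47, 8.53 and 9.20, DUSP10 8.14, 6.85 and 7.63, HMOX1 9.89, 7.83 and 9.48, and ANKRD1 7.75, 6.84 and 7.91.

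Lower at 48 h than at 24 h were COL4A1 (-0.76), COL4A2 (-0.73), VCAN (-0.64), MCM6 (-1.06), COL5A1 (-0.68), KIF11 (-0.999), UNG (-0.82), the translation factor EIF5A (-1.33), the transcription factor subunit TAF9B (-2.45), the matrix glycoprotein EFEMP1 (-1.13), the proteoglycan SPOCK1 (-0.93), the spindle midzone protein PRC1 (-1.02) and the ligand TNFSF4 (-1.57). TAF9B, SPOCK1 and PRC1 were not called at 24 h (0.15, 0.11 and 0.18), and with probe sets averaged the difference of TAF9B was -0.91. At 48 h siNeg had the highest group mean and siMPS1 the lowest in EIF5A, TAF9B, EFEMP1, SPOCK1, PRC1 and TNFSF4. In siMPS1, siNeg and Control, EFEMP1 had means of 10.03, 10.92 and 10.21, SPOCK1 8.89, 9.71 and 9.22, and TNFSF4 6.23, 7.37 and 6.57. PRC1 had 9.43, 10.26 and 9.92, EIF5A 9.705, 10.72 and 10.53, and TAF9B 4.81, 7.11 and 6.77. EIF5A at 24 h read 10.37 and 10.43 in siMPS1, 10.08 and 10.08 in siNeg, and 10.51 and 10.45 in Control.

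The 18S ribosomal RNA probe sets, which enter no gene result, were higher in siNeg than in Control at 24 h by 0.98 (mean of 3 probe sets; 11.16 and 11.15 against 10.17 and 10.20). Their part in the gene results was not tested.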

How the results depend on the processing

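TTK and the 24 leading genes kept their direction and their call in each alternative fit and without each array in turn. Of 152 list members named by the rule, 51 did so and 3 reversed when the probe sets of a gene were averaged: STAG1 (-0.12, from 0.25), ATP5PO (-0.12, from 0.21) and PDGFRA (0.073, from -0.62). Counts at 24 h (861 for siMPS1 minus siNeg) became 513 with only the 4 arrays compared and 46 with at least 2-fold change as well. That last rule gave 31 of 306 for 24 h against 6 h, 167 of 1254 for 48 h against 24 h, 40 of 998 for siMPS1 minus Control and 1 of 76 for siNeg minus Control. Without the intensity trend, 24 h against 6 h gave 139 and siNeg minus Control 3. The latter also gave 135 after median centring, 42 without the filter, 137 with 60% of probe sets left out, 117 with averaged probe sets, 44 with a replicate block within time and 12 with only the arrays of 24 h. Leaving out single arrays gave ranges of 370 to 879 (siMPS1 minus siNeg), 126 to 348 (24 h against 6 h), 862 to 1266 (48 h against 24 h), 455 to 1034 (siMPS1 minus Control) and 4 to 110 (siNeg minus Control). Same-numbered arrays at 24 h had deviations from their group means that correlated from 0.00535 to 0.114. These low values cannot tell whether such arrays share a culture or a run. With the number as a replicate block, siMPS1 minus siNeg gave 834, and 785 within time. The cause of these shifts was not tested. Dim genes, of which the 1904 dimmest gave 54 calls, are limited by signal over background.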

Other observations

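Groups not described above had the following calls at 24 h in the same fit (limma; 5.32% of all genes rose and 5.99% fell). Of 14 histone genes 2 rose and 1 fell, and the variant H2AZ2 rose by 0.33. Of 47 oxidative phosphorylation genes 4 rose and 1 fell, while 10 were called higher against Control and 0 lower. Of 33 interferon-induced genes 2 rose and 4 fell, so the rise of IFI44 was not shared by most of them. Of 24 homologous recombination and Fanconi genes 2 fell and 0 rose (3 and 3 at an unadjusted p under 0.05). Heat shock chaperones gave 2 rises and 1 fall of 21, and aminoacyl-tRNA synthetases 1 rise and 0 falls of 17 (2 and 3 unadjusted). In the list of translocon and signal peptidase genes, which holds SSR3, 3 rose and 2 fell of 25, and the signal peptidase subunit SPCS3 rose by 0.32, from 8.58 and 8.55 in siNeg to 8.89 and 8.88. Ribosomal protein genes, with 1 fall of 51 at 24 h, had 27 rises and 0 falls at 6 h.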
